A study of Mus musculus with 6 samples.

Results

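Synaptotagmins are the calcium sensors of regulated secretion, and this account covers 9 mouse synaptotagmin genes in sensory neurons: Syt1, Syt2, Syt3, Syt4, Syt5, Syt6, Syt7, Syt9 and Syt11. The members were taken by gene symbol, 9 of the 18193 genes with a probe set that carries a single symbol on the array, and they had 25 probe sets in all. Each gene is led by its brightest probe set, judged by mean log2 value over the arrays, and the others are given beside it. The RNA was taken from mouse dorsal root ganglia, which hold the cell bodies of sensory nerves, as 6 pools of neurons with 1 Affymetrix expression array each. Sample descriptions gave each pool 1 of 2 size classes, big or medium to small in diameter. Titles gave each big pool a code (L3-B, L3-S, L6-R) and the medium to small pools the same codes with a 2 appended, and pools whose codes differ only by that 2 were taken as 1 code. The L3-B pools each held 50 control neurons. The L3-S and L6-R pools each held 20 neurons retrogradely labelled with DiI, a lipophilic dye that axons carry back to the cell body. The sources used here do not say what the codes stand for, where the DiI was placed, or how many animals of which strain and age gave neurons.

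A synaptotagmin is anchored in a vesicle or in the plasma membrane by a single membrane-spanning segment and carries a pair of C2 domains on its cytoplasmic side. In the isoforms that sense calcium these domains bind the ion, insert into membrane phospholipid and act on the SNARE proteins that fuse the vesicle. Syt1, Syt2 and Syt9 are known as the fast sensors of synchronous transmitter release, and Syt7 as a slower, high-affinity sensor of asynchronous release. Syt3 and Syt6 belong to a group known for disulfide-bonded dimers, while Syt4 and Syt11 carry a substitution in the first C2 domain that removes calcium binding there. Sensory neurons use such sensors at their central terminals and also for neuropeptide release from dense-core vesicles.

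The members differed in which codes they moved with. Against L3-B, Syt1 rose in both DiI labelled codes, and Syt9 and Syt4 rose and Syt3 fell in L6-R. Syt9 also rose in L6-R against L3-S. The leading probe sets of Syt2, Syt7 and Syt11 passed in no comparison, and no member passed between size classes. In L6-R against L3-B 4 of 7 tested members passed, 3 higher and 1 lower, where 7.51% of all tested genes did (4.66% higher, 2.85% lower). In L3-S against L3-B 1 of 7 passed, against 1.02% of genes (0.923% higher, 0.0989% lower), and in L6-R against L3-S 1 of 7, against 3.18% (1.26% higher, 1.91% lower). Both comparisons with L3-B share its arrays, so they are not independent. The same holds for both comparisons of L6-R, where Syt9 passed, and for both of L3-S. Differences are of log2(signal + 32), which shrinks changes of dim probe sets. Each comes with its standard error (SE) from 1 limma fit of code and size class to all 6 arrays. A gene passed where its p, adjusted by Benjamini and Hochberg over 9097 tested genes, was under 0.05. The 9097 genes were the upper 50% by mean log2 value. They included 7 members, and Syt5 and Syt6 were too dim. Only spread between pools enters the p-values, and it may be partly technical. No code and size class had a second array, so this spread is how far big and medium to small pools disagreed on the differences between codes. Any real dependence of those differences on size class is mixed into it. The fit also draws each gene's spread toward that of all tested genes (degrees of freedom 2 residual and 6.46 prior). SEs and p-values thus rest only in part on a gene's own arrays. RNA of a pool is a sum over its neurons, so fewer neurons with a transcript and less transcript per neuron cannot be told apart.

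**Figure D1:**
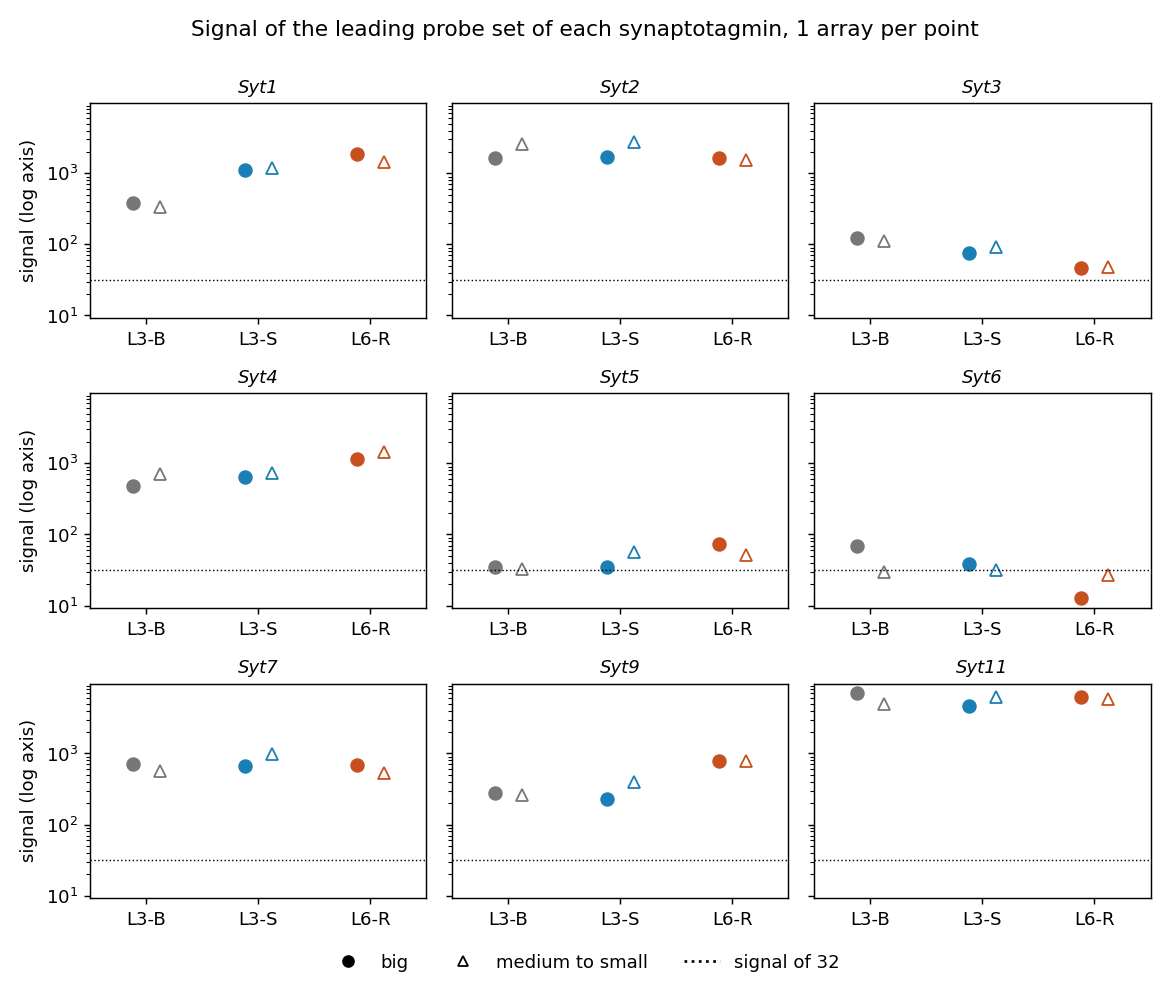
Signal of the leading probe set (log axis) of the 9 synaptotagmins by title code. Filled circles are big and open triangles medium to small diameter pools, 1 array each. The dotted line is a signal of 32, taken here as near background. The Syt1 points step up from L3-B (335 and 386) to L3-S and L6-R (all 1104 or more), and the Syt9 and Syt4 points of L6-R lie above those of both other codes.

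The upstream sequences of Syt1, Syt9 and Syt3 are shown because these members changed between codes and RefSeq gives a start for each. They come from RefSeq for build GRCm38.p6, which need not be the build of the array's design, and are the 250 bases before the start, 5' to 3' on the gene's strand. Capitals mark GC boxes (GGGCGG or CCGCCC) and CCAAT boxes (CCAAT or ATTGG). The Syt1 window is chr10:109010976-109011225 on the minus strand, the Syt9 window chr7:107370540-107370789 on the plus strand and the Syt3 window chr7:44383876-44384125 on the plus strand.
Syt1: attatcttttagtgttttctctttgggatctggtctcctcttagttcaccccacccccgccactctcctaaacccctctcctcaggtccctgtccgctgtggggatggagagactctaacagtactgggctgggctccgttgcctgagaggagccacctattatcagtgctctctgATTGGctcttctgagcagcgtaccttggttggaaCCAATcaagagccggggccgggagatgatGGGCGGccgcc
Syt9: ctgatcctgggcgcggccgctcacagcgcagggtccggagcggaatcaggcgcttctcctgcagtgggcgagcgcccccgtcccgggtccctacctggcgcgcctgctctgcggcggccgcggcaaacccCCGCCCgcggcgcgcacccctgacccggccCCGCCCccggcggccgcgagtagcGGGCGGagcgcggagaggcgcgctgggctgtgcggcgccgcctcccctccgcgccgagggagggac
Syt3: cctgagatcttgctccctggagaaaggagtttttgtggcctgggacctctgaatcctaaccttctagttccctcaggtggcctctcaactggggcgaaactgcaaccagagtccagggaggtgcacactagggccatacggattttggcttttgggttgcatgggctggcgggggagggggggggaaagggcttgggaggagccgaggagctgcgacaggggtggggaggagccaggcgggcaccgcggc

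The 3 windows differed in their GC and CCAAT boxes. The Syt1 window held 1 GC box, 11 bases before the start, and 2 CCAAT boxes, 74 and 40 bases before it. The Syt9 window held 3 GC boxes, 120, 90 and 66 bases before the start, and no CCAAT box, and the Syt3 window held neither. Syt9 stood out by 40 CG pairs and 80.4% G and C, where Syt1 and Syt3 had 8 pairs each and the median over 32851 RefSeq windows of this length was 6. Of those windows 32.7% held a GC box and 33.8% a CCAAT box on either strand. A TATA box (TATAAA or TTTATA), a cAMP response element (TGACGTCA) and an AP-1 site (TGACTCA or TGAGTCA), held by 12.4%, 1.55% and 4.46% of windows, were in none of the 3. A second RefSeq start of Syt1 had a window with no match to any of these motifs. Windows were found for 6 of the 9 members, 10 windows in all. Syt4, which also changed between codes, was left out of this search, so whether RefSeq gives it a start was not looked at. A match is a run of letters and not a shown binding site.

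Among the fast sensors, Syt1 was higher in DiI labelled neurons of both codes than in control neurons. Syt1 (chromosome 10) is the main fast calcium sensor of forebrain synapses and also acts on dense-core vesicles. Its signals were 386 and 335 for L3-B (big, then medium to small), 1104 and 1175 for L3-S, and 1880 and 1447 for L6-R. The 4 DiI labelled arrays all lay above both L3-B arrays, and the L6-R arrays above the L3-S arrays. Against L3-B, Syt1 rose by 1.58 ± 0.23 log2 in L3-S (2.99-fold; SE, n = 2 arrays in each code, adjusted p = 0.0196) and by 2.10 ± 0.23 in L6-R (4.30-fold, adjusted p = 0.00134). L6-R exceeded L3-S by 0.52 ± 0.23, which did not pass (adjusted p = 0.321; 95% interval -0.0037 to 1.05). Whichever array was left out, the rise in L6-R passed, at 1.94 to 2.26. That in L3-S passed less firmly: leaving out L3-S medium to small gave 1.40 (adjusted p = 0.0724), a pseudocount of 1 gave 1.66 (adjusted p = 0.0556), and no filter on dim genes gave an adjusted p of 0.0788.

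The other 3 Syt1 probe sets were dim, with signals under 78 in every array. In 2 of them all DiI labelled arrays also lay above L3-B. One had signals of 15.0 and 19.0 for L3-B, 51.2 and 45.1 for L3-S and 49.1 and 40.3 for L6-R. The other had 24.3 and 20.3 for L3-B, 37.5 and 38.9 for L3-S and 77.7 and 50.5 for L6-R. The remaining one stayed at 20.6 or less. With the mean of the 4 probe sets in place of the leading one, the Syt1 differences shrank to 0.62 in L3-S (adjusted p = 0.244) and 0.88 in L6-R (adjusted p = 0.0300). DiI labelling, the number of neurons pooled (20 against 50) and the code cannot be told apart in these comparisons, which also share the L3-B arrays.

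Syt9 was higher in L6-R than in both other codes. Syt9 (chromosome 7) is a fast sensor of some neurons and of endocrine cells, and the literature has at times exchanged its name with that of Syt5. Its only probe set had signals of 275 and 259 for L3-B, 229 and 401 for L3-S, and 781 and 796 for L6-R. Both L6-R arrays lay above the other 4, and the arrays of L3-B and L3-S overlapped. Syt9 rose in L6-R by 1.46 ± 0.26 log2 against L3-B (2.74-fold; SE, n = 2 arrays in each code, adjusted p = 0.0130) and by 1.29 ± 0.26 against L3-S (2.44-fold, adjusted p = 0.0406). L3-S against L3-B stood at 0.17 ± 0.26 (adjusted p = 0.939). The rise over L3-B was lost without the L6-R big array (1.31, adjusted p = 0.101). The rise over L3-S was lost without L3-S big (0.91, adjusted p = 0.235), without L6-R big (1.14, adjusted p = 0.296) and without L6-R medium to small (1.44, adjusted p = 0.110). It was lost too with a pseudocount of 1 (1.38, adjusted p = 0.0960), with no filter on dim genes (adjusted p = 0.110) and with the mean of each gene's probe sets (adjusted p = 0.0505).

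Syt2, the fast sensor that prevails in brainstem and spinal cord and in fast, reliable synapses, passed in no comparison. Its signals (chromosome 1) were 1622 and 2579 for L3-B, 1699 and 2786 for L3-S, and 1665 and 1523 for L6-R. The big arrays of the 3 codes lay close together, and the medium to small L6-R array was low against its L3-B and L3-S counterparts. L3-S differed from L3-B by 0.09 ± 0.27 log2 (95% interval -0.53 to 0.70) and L6-R by -0.36 ± 0.27 (-0.97 to 0.26), neither past the threshold. The matched difference of L6-R from L3-B was 0.037 in the big pair and -0.75 in the medium to small pair. Of the other 2 Syt2 probe sets, one read 112 and 111 for L3-B, 68.4 and 86.7 for L3-S and 61.6 and 62.3 for L6-R, and the last ran from 39.4 to 74.1. Whether the Syt1 and Syt2 differences differ from each other was not tested.

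**Figure D2:**
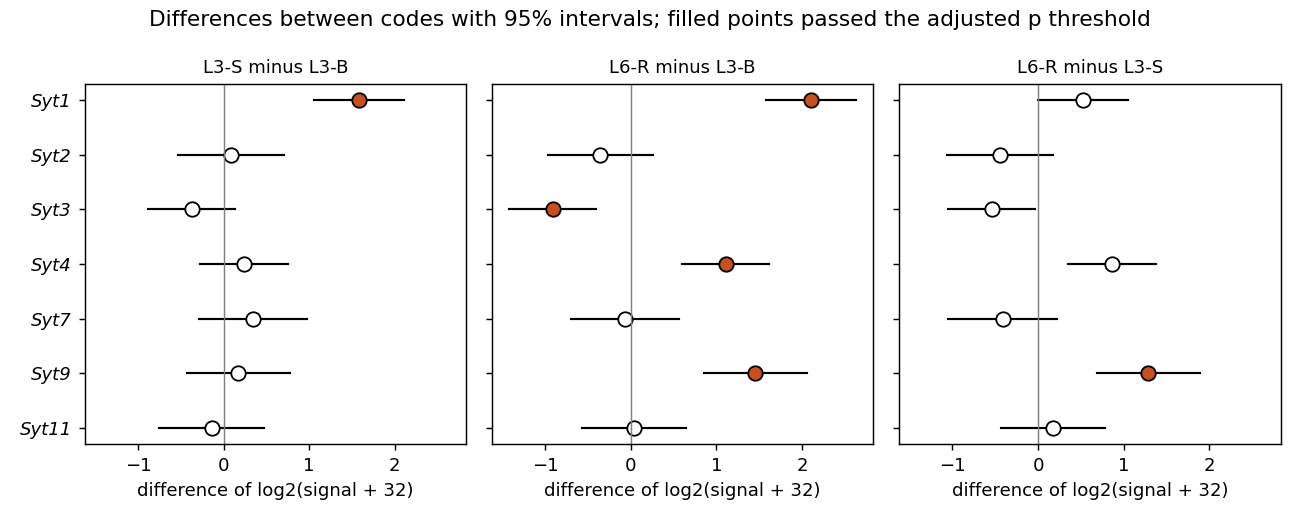
Differences of log2(signal + 32) between codes for the 7 tested members (points) with 95% intervals of the limma fit (lines), 1 panel per comparison; filled points passed the adjusted p threshold. Syt1 is filled in both comparisons with L3-B, and Syt9 in both comparisons of L6-R.

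Syt7, the slower sensor, which also acts in lysosome fusion with the plasma membrane, showed no difference between codes past the threshold. Its leading probe set (chromosome 19) had signals of 709 and 572 for L3-B, 671 and 995 for L3-S, and 693 and 531 for L6-R. The L3-S medium to small array was the highest. It was also the highest in the next 2 Syt7 probe sets, at 796 (the other arrays 464 to 621) and 195 (123 to 174). The fourth Syt7 probe set did not exceed 37.8. L3-S differed from L3-B by 0.34 ± 0.28 log2 (95% interval -0.29 to 0.98) and L6-R by -0.07 ± 0.28 (-0.70 to 0.57).

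Syt3 fell in L6-R, and Syt5 and Syt6 were too dim to test. Syt3 (chromosome 7), known for calcium-dependent retrieval of receptors from the plasma membrane, had signals of 123 and 112 for L3-B, 76.5 and 91.2 for L3-S, and 47.0 and 47.7 for L6-R. The 3 codes did not overlap. In L6-R against L3-B it fell by 0.91 log2 with an SE of 0.22 (n = 2 arrays in each code, adjusted p = 0.0439), a 1.88-fold change on this scale. L6-R against L3-S stood at -0.54 ± 0.22 (adjusted p = 0.279) and L3-S against L3-B at -0.37 ± 0.22 (adjusted p = 0.684).

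The Syt3 call passed in 8 of 15 alternatives, fewer than the other 3 calls of that comparison (13, 15 and 16 of 16). In these counts, leaving out either L3-S array and comparing only L6-R and L3-B were the same fit. It was lost without L3-B big (-0.81, adjusted p = 0.106), L3-B medium to small (-1.02, adjusted p = 0.0551), L6-R big (-0.93, adjusted p = 0.315) or L6-R medium to small (-0.90, adjusted p = 0.303). The added 32 is of the size of these signals: with 1 added in its place the Syt3 difference was -1.29 (adjusted p = 0.0333), and with a larger pseudocount it was -0.49 (adjusted p = 0.122). With no filter on dim genes its adjusted p was 0.0824, and with a trend in eBayes 0.0601. Syt5 (chromosome 7), a vesicle protein, had signals of 35.4 and 32.4 for L3-B, 34.8 and 56.4 for L3-S, and 72.4 and 52.3 for L6-R. Syt6 (chromosome 3), known from the sperm acrosome, had 69.96 and 29.5 for L3-B, 37.9 and 31.5 for L3-S, and 12.7 and 27.2 for L6-R. These values lie around the added 32, taken here as near background, and neither gene was tested. Background itself was not measured. In L6-R the Syt5 signals lay above those of Syt3 (47.0 and 47.7), which passed the filter through its mean over all arrays. The other 3 Syt6 probe sets ran up to 23.2.

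Of the members whose first C2 domain does not bind calcium, Syt4 was higher in L6-R and Syt11 passed in no comparison. Syt4 (chromosome 18) sits on dense-core vesicles, including those that carry neurotrophins, and is known as a gene that neuronal activity induces. Its leading probe set had signals of 481 and 703 for L3-B, 648 and 743 for L3-S, and 1166 and 1429 for L6-R. Both L6-R arrays lay above the other 4, and L3-B and L3-S overlapped. Syt4 rose by 1.11 ± 0.22 log2 in L6-R against L3-B (2.15-fold; SE, n = 2 arrays in each code, adjusted p = 0.0210). Against L3-S it stood at 0.87 ± 0.22 and did not pass (adjusted p = 0.0884). It did pass with the mean of its probe sets (1.09, adjusted p = 0.0421) or a larger pseudocount (0.79, adjusted p = 0.0445). It also passed with only L6-R and L3-S compared (adjusted p = 0.0364), which is the same fit as without either L3-B array. This difference from L3-S did not pass without L3-S big (0.97), L3-S medium to small (0.76), L6-R big (0.83) or L6-R medium to small (0.90). The rise over L3-B was lost without L3-B big (0.97, adjusted p = 0.0585), L6-R big (1.07, adjusted p = 0.201) or L6-R medium to small (1.14, adjusted p = 0.150).

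The second Syt4 probe set had signals of 414 and 284 for L3-B, 214 and 373 for L3-S, and 646 and 878 for L6-R. Its L6-R arrays too lay above the other 4, by 1.07 log2 against L3-B and 1.31 against L3-S on average. Syt11 (chromosome 3), known as a brake on endocytosis, had signals of 7027 and 4955 for L3-B, 4638 and 6192 for L3-S, and 6306 and 5807 for L6-R. Its codes overlapped. L3-S differed from L3-B by -0.14 ± 0.27 log2 (95% interval -0.75 to 0.47) and L6-R by 0.04 ± 0.27 (-0.58 to 0.65). The average differences of the other 4 Syt11 probe sets between L6-R and L3-B ran from -0.20 to 0.17.

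**Figure D3:**
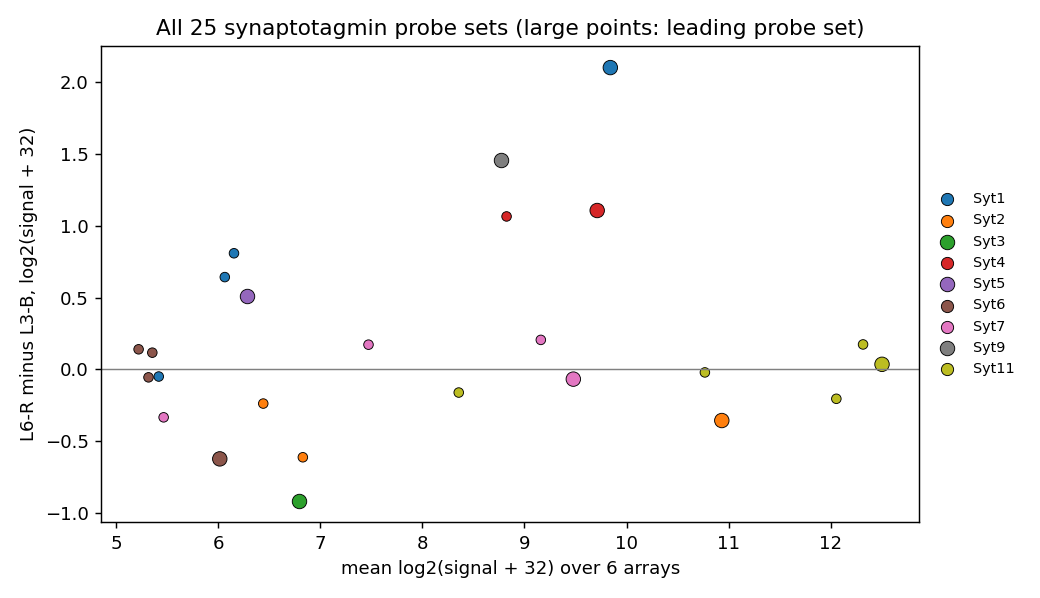
Each of the 25 synaptotagmin probe sets, with its mean log2(signal + 32) over 6 arrays on the horizontal axis and the average difference of L6-R minus L3-B on the vertical axis; colours are genes and large points lead. Both Syt4 probe sets lie near 1.1, the 5 Syt11 probe sets within 0.21 of 0, and the dim Syt1 probe sets between -0.05 and 0.81.

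Over the 7 tested members the median difference was 0.036 log2 in L6-R against L3-B, 0.17 in L3-S against L3-B and 0.17 in L6-R against L3-S. Over all tested genes it was 0.016, 0.031 and -0.012. In L6-R against L3-B the arrays of the codes did not overlap for 4 of 7 members (Syt1, Syt3, Syt4 and Syt9) and for 49.8% of all tested genes. In L3-S against L3-B they did not overlap for Syt1 and Syt3 and for 38.5% of genes, and in L6-R against L3-S for Syt1, Syt2, Syt3, Syt4 and Syt9 and for 52.6% of genes. With 2 arrays a code such separation is common and is a description only.

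Big against medium to small neurons gave no call. Between size classes the median difference was 0.070 log2 for markers of large myelinated-fibre neurons. It was 0.25 for markers of peptidergic and other small-diameter neurons. How far the pools differed in neuron types was not tested. Of 9097 genes 0 passed (0% called), with 320 at an unadjusted p under 0.05, none of them a member. The arrays of the size classes overlapped for all 7 tested members, and did not for 5.03% of genes. The largest member differences were those of Syt2 (-0.41 ± 0.22 log2, n = 3 arrays per size class, 95% interval -0.91 to 0.09) and Syt4 (-0.33 ± 0.18, -0.75 to 0.086). The leading Syt4 probe set was lower in the big array of all 3 codes, by 0.52, 0.19 and 0.29. Its other probe set was higher in the big array of L3-B (0.50) and lower in those of L3-S (-0.72) and L6-R (-0.42). The leading Syt2 probe set was lower in the big array of L3-B and L3-S (-0.66 and -0.70) and higher in that of L6-R (0.13). The other Syt2 probe sets averaged -0.078 and 0.088 over the codes.

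Markers of neuron types and of other cells moved along with these codes, and their summed signals are given with the lower array of each code first. All 10 general markers of sensory neurons were tested, and 0 passed between any codes. Their sums were 52569 and 53012 for L3-B, 47383 and 55127 for L3-S and 59024 and 70341 for L6-R, so both L6-R arrays lay above the others. The median difference of this list was 0.38 log2 in L6-R against L3-B, 0.22 in L6-R against L3-S and 0.014 in L3-S against L3-B. Of markers of large myelinated-fibre neurons 5 of 6, Vamp1 among them, fell in L6-R against L3-B, their summed signal being 19974 and 22224 for L3-B, 17758 and 21012 for L3-S and 10785 and 12876 for L6-R. Of peptidergic and other small-neuron markers 3 of 4 rose, with sums of 2498 and 2622 for L3-B, 4112 and 4444 for L3-S and 7541 and 9788 for L6-R. Satellite glia and Schwann cell markers rose in 4 of 8 tested (9 measured), with sums of 11095 and 12344 for L3-B, 11162 and 13752 for L3-S and 12938 and 16057 for L6-R. Mag was under 32 in every array. Connective tissue and vessel markers rose in 3 of 4 tested (9 measured), with sums of 327 and 418 for L3-B, 1451 and 1537 for L3-S and 1076 and 1828 for L6-R, and Cdh5, Col1a1 and Pecam1 were under 32 in every array. Of 7 blood and immune markers 5 were under 32 in every array, and their sums were 98.9 to 274. In L3-S against L3-B, where Syt1 rose, the vessel marker Rgs5 rose by 3.32, the small-neuron marker Tac1 by 3.47 and the large-neuron marker Pvalb by 1.81 log2. No marker passed with a lower signal in L3-S. Pvalb was the only 1 of the 6 large-neuron markers to pass, and the median of that list was -0.22. Of the others, Ntrk3 stood at -1.15 (adjusted p = 0.0664), Scn1a at -0.36, Vamp1 at -0.29, Nefh at -0.16 and Kcnc4 at 0.067. In L6-R against L3-S, where Syt9 rose, the large-neuron markers Pvalb, Kcnc4 and Vamp1 fell and the small-neuron markers Tac1 and Trpv1 rose. The ratio of 3' to 5' Actb control signal was 3.73 to 13.9 over the arrays. With it as a covariate the 4 calls in L6-R against L3-B were kept. The part of the markers in the synaptotagmin differences was not tested.

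The other synaptotagmins on the array gave no call. Of 7 measured, Syt12 and Syt14 were bright enough to test. Syt14 stood at 0.40 in L3-S and 0.53 in L6-R against L3-B (adjusted p = 0.640 and 0.212), and Syt12 at -0.41 and -0.49 (adjusted p = 0.646 and 0.254). Between L6-R and L3-S they stood at 0.13 and -0.087, and between size classes at -0.038 and -0.0088.

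The machinery that synaptotagmins act on moved in single genes. Of 10 tested SNAREs and fusion proteins, Vamp1, the vesicle SNARE of many large sensory and motor neurons, fell in L6-R by 1.55 log2 against L3-B (adjusted p = 0.00453) and by 1.26 against L3-S (adjusted p = 0.0216). The list's medians were 0.080 and -0.035. The other 9 did not pass there, and the partner SNARE Snap25 had signals of 6328 and 7332 for L3-B, 6809 and 7209 for L3-S and 5987 and 5834 for L6-R. In L3-S against L3-B none of the 10 passed (median 0.054), with Stx1a at 0.57 (adjusted p = 0.592) and Vamp3 at 0.47 (adjusted p = 0.661). Between size classes none passed (median -0.082), with Vamp4 at 0.34 and Vamp1 at -0.26.

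Of 11 tested priming and clamping proteins, Cadps2, which primes dense-core vesicles, rose in L3-S by 3.07 ± 0.32 (n = 2 arrays per code, adjusted p = 0.00486) and in L6-R by 2.06 ± 0.32 (adjusted p = 0.00606) against L3-B. Its signals were 74.1 and 50.4 for L3-B, 1152 and 492 for L3-S, and 338 and 380 for L6-R, so that, like Syt1, it was higher in all 4 DiI labelled arrays. Rab3c, a vesicle GTPase, had signals of 1903 and 2146 for L3-B, 2040 and 2260 for L3-S, and 946 and 918 for L6-R, and fell in L6-R by 1.09 against L3-B (adjusted p = 0.0207) and by 1.18 against L3-S (adjusted p = 0.0280). The list's medians were -0.050 in L3-S and -0.26 in L6-R against L3-B, and -0.36 between them. Between size classes none passed, with Cadps2 at 0.46 and Erc2 at 0.27.

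Among 10 tested vesicle proteins Synpr, a relative of synaptophysin, rose in L6-R against L3-B by 1.69 (adjusted p = 0.00941). Sv2a, which binds synaptotagmin on vesicles, rose in L3-S against L3-B by 1.68 (adjusted p = 0.0299) and fell in L6-R against L3-S by 1.25 (adjusted p = 0.0487). Its signals of 92.6 and 65.1 for L3-B, 256 and 401 for L3-S and 117 and 115 for L6-R were highest in L3-S. The list's medians were 0.0069 and -0.40 in L3-S and L6-R against L3-B, and -0.37 between them. Between size classes Scamp5 stood at -0.45 and Synpr also at -0.45, and none passed.

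Among other listed proteins with C2 domains 1 gene passed, in 2 comparisons. Rph3a (rabphilin), a Rab3 effector, had signals of 2767 and 2367 for L3-B, 1640 and 1765 for L3-S, and 803 and 774 for L6-R. It fell in L6-R by 1.66 ± 0.22 against L3-B (n = 2 arrays per code, adjusted p = 0.00351) and by 1.08 against L3-S (adjusted p = 0.0421). The 4 tested genes had medians of -0.28 and 0.16 for L3-S and L6-R against L3-B, and 0.40 between them. In L3-S against L3-B Sytl2 stood at -0.63 and Rph3a at -0.58 (adjusted p = 0.343 and 0.392), and between size classes Esyt1 at -0.42 and Esyt2 at 0.20.

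**Figure D4:**
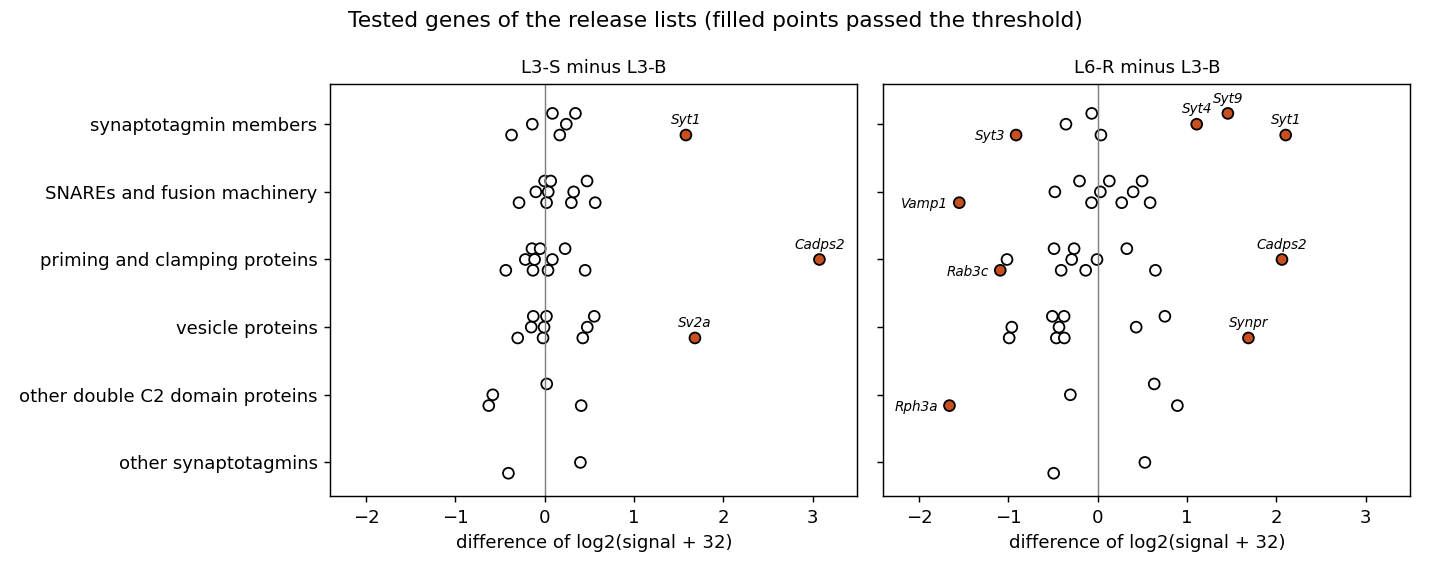
Differences of log2(signal + 32) for tested synaptotagmins and 5 lists of release genes, L3-S minus L3-B on the left and L6-R minus L3-B on the right, 1 point per gene; filled, named points passed the threshold. Syt1 and Cadps2 are named to the right in both panels and Vamp1, Rab3c and Rph3a to the left in L6-R.

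For each member that changed, the 3 tested genes with the closest pattern over the 6 arrays were taken, by the root mean square difference of log2 values centred on each gene's mean. Being picked as the closest on these same arrays, they lie under the median of all genes by construction. Shared regulation was not tested. For Syt1 these were Gnb4, a G protein beta subunit (0.12), the teneurin Tenm1 (0.18) and the pacemaker channel Hcn3 (0.25), against a median of 0.92 over all tested genes. Gnb4 had signals of 78.7 and 51.7 for L3-B, 216 and 231 for L3-S, and 365 and 280 for L6-R. For Syt9 they were Samd14 (0.092), the glypican Gpc1 (0.15) and Sh3yl1 (0.17), against a median of 0.72. Samd14 had 222 and 167 for L3-B, 161 and 265 for L3-S, and 561 and 572 for L6-R. For Syt4 they were the sarcospan gene Sspn (0.049), Washc4 of the WASH complex (0.052) and the kinesin Kif13b (0.063), against 0.56. For Syt3 they were the kindlin gene Fermt2 (0.049), the lactase gene Lct (0.055) and the kinase Gsk3a (0.068), against 0.45.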

How the data were processed

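The measurement was RNA abundance on 6 Affymetrix mouse arrays, 1 per pool of neurons. The authors deposited linear signal intensity for 45037 probe sets and 64 control probe sets; how probes were summarised and arrays scaled is not given in the sources used here. After trimming 2% at each end, each array's mean was 150, so the values were not normalized again. Between 55.3% and 59.5% of probe sets per array read under 32, a level taken here as near background. Precision is limited by how many arrays there were.

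Gene symbols came from the platform annotation (34945 probe sets with a single symbol, 18193 genes), and chromosomes from RefSeq by gene identifier, where all 9 member symbols were current. Values were transformed as log2(signal + 32), and the upper 50% of genes by mean (9097, minimum 6.41) entered limma 3.58.1 in R 4.3.3 (additive model of code and size class, degrees of freedom 2 residual and 6.46 prior, moderated two-sided test, 95% intervals from the same fit). The script was tested on simulated data. Members, lists and the rule for named genes were chosen with earlier results of these data known: all members, each list's genes past the threshold or otherwise the 2 with the smallest p, and 3 nearest patterns per changed member. Snap25, and the marker genes named as under 32, were named after their values were seen. Alternatives changed 1 choice each: quantile-normalized arrays, a smaller (1) or larger pseudocount, testing all genes or the brightest 25%, averaging each gene's probe sets, a trend in eBayes, array weights, the Actb ratio, fewer arrays, no term for code, or 1 array left out. Syt15 was not analysed here.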

Additional observations from a re-analysis of the deposited data

Results flagged for a closer look

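In each comparison of codes, some members moved one way in the big pair of arrays and the other way in the medium to small pair. With 1 array for each combination these differences were not tested, and opposite signs were common: 34.8% of tested genes in L6-R against L3-S, 50.6% in L3-S against L3-B and 35.6% in L6-R against L3-B. The members' counts were 2, 3 and 2 of 7. In L6-R against L3-S, Syt7 differed by 0.045 in the big pair and -0.87 in the other, a gap of 0.91 log2, and Syt11 by 0.44 and -0.092, a gap of 0.53. In L3-S against L3-B, Syt7 differed by -0.077 and 0.77 (gap -0.84), Syt9 by -0.23 and 0.57 (gap -0.80) and Syt11 by -0.60 and 0.32 (gap -0.92). In L6-R against L3-B, Syt2 differed by 0.037 and -0.75 (gap 0.78) and Syt11 by -0.16 and 0.23 (gap -0.38). Of the members that passed in a comparison, Syt9 in L3-S against L3-B was the only such case, and it had not passed there.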

How the results depend on the processing

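Of the 6 member calls, the rise of Syt1 in L6-R over L3-B passed in all 16 alternatives (0.88 to 2.26 log2), and no call changed direction in any. The alternatives are not all separate checks. Leaving out either array of the code not compared gave the same fit as only the codes compared. Members past the threshold in L6-R against L3-S numbered 1; they numbered 0 with a pseudocount of 1 or no filter on dim genes, 2 with a larger pseudocount, array weights, the Actb ratio or only the codes compared, and 0 to 2 with each array left out. In L3-S against L3-B the count of 1 became 0 with a pseudocount of 1, no filter or averaging each gene's probe sets, and was 0 to 1 with each array left out. In L6-R against L3-B the count of 4 was 1 to 4 with each array left out. Over all genes, calls ran from 107 to 994 around 289 in L6-R against L3-S, from 14 to 512 around 93 in L3-S against L3-B, and from 356 to 1590 around 683 in L6-R against L3-B. The cause of these shifts was not tested. Among differences that had not passed, these changed sign: with the mean of probe sets, Syt2 (-0.19) and Syt4 (-0.0031) in L3-S against L3-B, Syt11 in L6-R against L3-B (-0.035) and by size Syt11 (-0.058) and Syt7 (-0.069); with quantile normalization, Syt11 in L6-R against L3-B (-0.015) and by size Syt11 (-0.034) and Syt3 (0.011); with the Actb ratio, Syt11 in L6-R against L3-B (-0.026) and by size Syt11 (-0.0025) and Syt7 (-0.022). With each array left out, sign changes fell in these ranges: in L6-R against L3-S, Syt11 -0.19 to 0.54 and Syt7 -0.85 to 0.027; in L3-S against L3-B, Syt11 -0.50 to 0.22, Syt2 -0.13 to 0.31, Syt9 -0.21 to 0.55 and Syt7 -0.094 to 0.78. In L6-R against L3-B they were Syt7 -0.31 to 0.18, Syt11 -0.29 to 0.36 and Syt2 -0.76 to 0.048, and by size Syt11 -0.15 to 0.31, Syt7 -0.13 to 0.33, Syt3 -0.099 to 0.046 and Syt9 -0.38 to 0.024. Size class was a term of the fit, so codes were compared within size classes; whether a difference between codes depended on size class could not be tested with 1 array for each combination.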
